A study of Mus musculus with 77 samples.

Results

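Hepcidin, the liver hormone that sets how much iron enters the blood, and the BMP-SMAD signalling that controls it were followed in mouse livers that lacked iron regulatory protein 1 (IRP1, encoded by *Aco1*) or 2 (IRP2, encoded by *Ireb2*). The members were chosen by name, with earlier results of these data known. They were the hepcidin gene *Hamp*, its copy *Hamp2*, the ligand gene *Bmp6*, the SMAD target genes *Id1* and *Smad7*, and *Fbxl5*, which encodes an iron-sensing ubiquitin ligase subunit, that is 6 of 25266 genes listed. All 6 passed the filter on low counts, which left 10696 genes for testing. Ribosome profiling reads the stretches of mRNA covered by translating ribosomes, called ribosome-protected fragments (RPFs). Sequencing of total RNA from each lysate gave the mRNA level.

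The study asked how liver translation of IRP targets changes over the day without either IRP. It covered 24 livers of male C57BL/6J mice aged 12 to 24 weeks, fed normal chow ad libitum under light-dark cycles, with 3 livers in each of 8 groups. The groups were Aco1+/+ and Aco1-/- livers (allele *Aco1* tm1.1Mwh) and Ireb2+/+ and Ireb2-/- livers (allele *Ireb2* tm1.2Mwh), each at ZT5 and ZT12 (zeitgeber time, counted in hours from lights on). The deletions were constitutive and in the whole body, so blood, gut and bone marrow lacked the protein too, and each line had its own controls. Values are CPM, that is counts in the coding sequence (CDS) scaled to library size by the upper quartile, and translation efficiency (TE) is log2 of RPF over RNA in the same liver.

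As background, hepatocytes secrete hepcidin, which binds the iron exporter ferroportin and has it degraded, so that less iron reaches the plasma. Iron loading leads sinusoidal endothelial cells of the liver to release BMP6, which acts on hepatocyte BMP receptors and, through phosphorylated SMAD1, SMAD5 and SMAD8 with SMAD4, switches on *Hamp* along with *Id1* and *Smad7*. Inflammation raises *Hamp* by a separate route through interleukin-6 and STAT3, and FBXL5 acts further upstream, as it marks IRP2 for destruction when iron is plentiful.

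RefSeq promoter sequences (GRCm38.p6, 250 bases before to 50 after the gene's start) were matched for 3 members, *Hamp*, *Hamp2* and *Bmp6*. *Smad7* was left out of this search, and *Id1* and *Fbxl5* had no promoter in the set used. The promoters of *Hamp* and *Hamp2* were identical at 276 of 303 alignment columns (91.1%), against 154 of 321 (47.98%) for *Hamp* and *Bmp6*. Both strands were searched for GGCGCC, the core of the BMP-responsive element bound by SMADs, and CACGTG, the E-box of clock and other basic helix-loop-helix factors. The windows are shown because GGCGCC is where the BMP route meets *Hamp*, beside the aligned letters of the copy. The capitals mark the matched motif, except in the aligned stretch of *Hamp2*, where they mark the bases that differ from *Hamp*.
Hamp, BMP-responsive core, minus strand, chr7:30944121-30944150: tcccgcctgtttGGCGCCactattttcttg
Hamp2, aligned stretch, minus strand, chr7:30924270-30924299: tcccgcctgtttggcAccactatCttcttg
Bmp6, E-box, plus strand, chr13:38345577-38345606: ttcagggcagcgCACGTGtgcagactgcga

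The GGCGCC of *Hamp* ended 104 bases before the start, and GGCGCC was not found in the *Hamp2* window. Counted from 1 at the 5′ end of the printed stretch, *Hamp2* carried the substitutions G16A and T24C relative to *Hamp*, and the first of them falls within the motif. The E-box of *Bmp6* began 127 bases before its start. Of 32851 RefSeq promoters of the same length, 11.9% held GGCGCC and 7.15% CACGTG, so each motif is common, and no binding was measured here.

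The 2 hepcidin genes lie close together on chromosome 7, *Hamp* (ENSMUSG00000050440) at chr7:30942368-30944029 and *Hamp2* (ENSMUSG00000056978) at chr7:30922372-30924181 (GRCm38.p6), and *Bmp6* (ENSMUSG00000039004) at chr13:38345716-38500314. *Id1* (ENSMUSG00000042745) is at chr2:152736251-152737410, *Smad7* (ENSMUSG00000025880) at chr18:75367365-75395935 and *Fbxl5* (ENSMUSG00000039753) at chr5:43744618-43782149.

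RNA libraries held 852293 to 3993492 CDS counts (median 2103622) and RPF libraries 2448915 to 13439600 (median 6784598). In the Aco1 line, *Aco1* RPF was 74.8 to 123.2 CPM in knockouts and 347.1 to 591 in controls, and RNA was 114 to 215 against 239 to 358, so mRNA was still made. *Ireb2* RPF was 32.5 to 41.2 CPM in Ireb2-/- and 62.3 to 81.4 in Ireb2+/+ livers, whereas RNA overlapped, at 98.9 to 162 against 71.5 to 148.01. Summed hepatocyte markers were 90246 to 147698 CPM of RNA in every liver, whereas leukocytes could not be judged, since *Ptprc* was listed at 0 in all livers, which hold Kupffer cell transcripts, and only *Cd79a* gave counts. Summed transcripts of pancreas enzymes reached 8222 CPM of RNA in Ireb2+/+ ZT5 replicate 3 and 189.6 in Ireb2-/- ZT12 replicate 1, against at most 22.4 elsewhere, and results of the Ireb2 line that are lost, gained or moved without these livers are given both ways, while 0 members passed in any comparison without them (edgeR).

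Counts set the precision for each member. *Hamp* had 488 to 6884 RNA counts and 2558 to 29258 RPF counts per liver, and *Fbxl5* had 39 to 217 and 44 to 241. The other members were sparse, with 3 to 617 RNA counts for *Hamp2*, 5 to 52 for *Bmp6*, 5 to 104 for *Id1* and as few as 7 for *Smad7*. Counts between genes depend on their length, so levels are compared only between livers for a given gene.

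*Hamp* varied between livers more than its group labels alone, from 321 to 1523 CPM of RNA (4.74-fold) and from 691 to 4039.6 CPM of RPF (5.85-fold). The highest group mean in both assays belonged to Aco1-/- livers at ZT5 and the lowest to Ireb2-/- livers at ZT5. In knockout livers of the Aco1 line, *Hamp* RPF fell from ZT5 to ZT12, and this was the only one of 180 tests (6 members, 30 comparisons) that passed the adjustment over all genes. In bulk tissue, fewer cells of a type and less RNA per cell cannot be told apart.

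In the Aco1 line at ZT5, *Hamp* RNA was 568, 475 and 485 CPM in the 3 control livers and 1523, 1437 and 806 CPM in the 3 knockout livers. RPF was 1634, 1204 and 1163 CPM in controls and 4039.6, 4018 and 1725 CPM in knockouts. Each knockout liver lay above each control liver in both assays, and replicate 3 was the lowest knockout in both. Genotypes did not overlap in this comparison for 9.4% of all genes in RNA and 7.62% in RPF. The means were 509 ± 51.1 and 1255 ± 391.6 CPM of RNA (SD, n = 3), and the fitted log2 fold change was 1.30 ± 0.39 (SE), or 2.46-fold. In RPF the log2 fold change was 1.29 ± 0.31, or 2.44-fold. By edgeR's quasi-likelihood test with Benjamini-Hochberg adjustment over all genes, RNA had an adjusted p of 1 and RPF an adjusted p of 1.00, so neither difference passed. Without the knockout replicate 3 the RPF difference was 1.59 with an edgeR adjusted p of 0.00952, and DESeq2 gave 1.27 with an adjusted p of 0.0115, whereas the range over 15 alternatives was 0.00952 to 1.

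**Figure D1:**
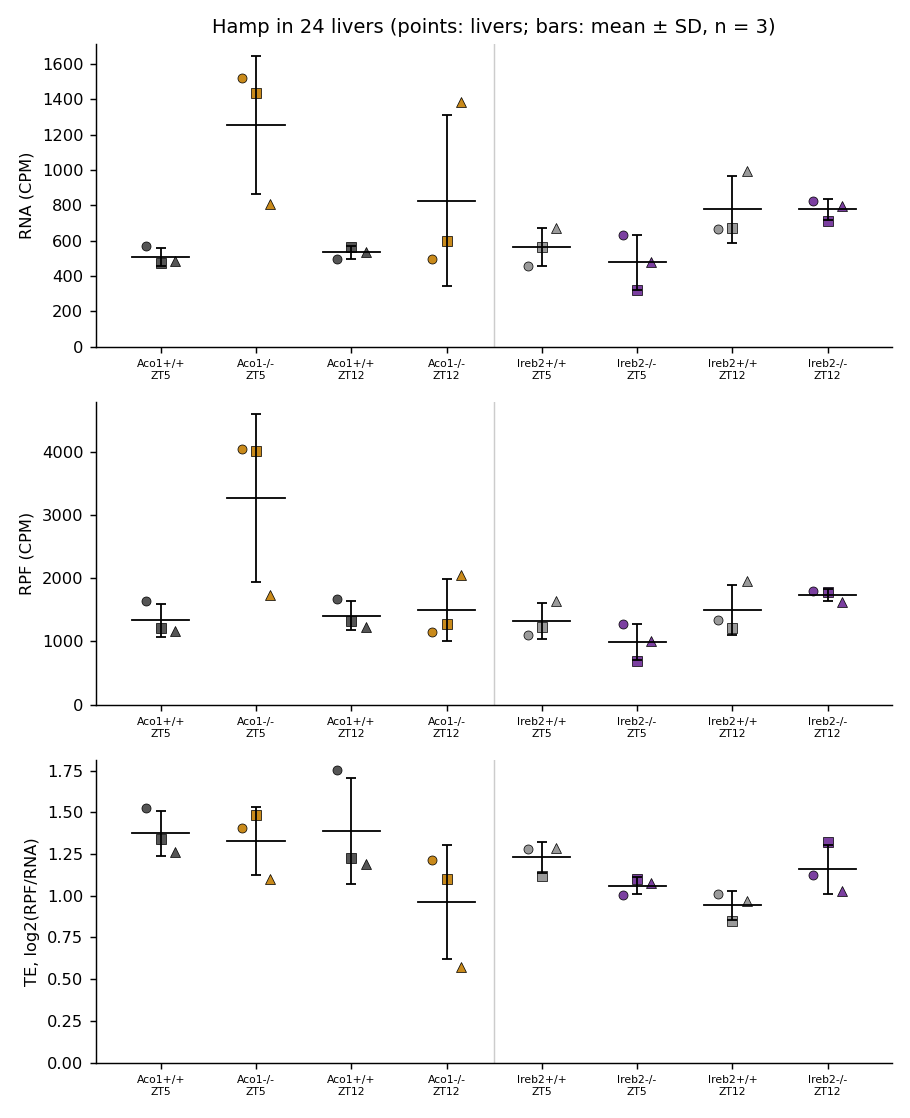
*Hamp* RNA (top, CPM), RPF (middle, CPM) and TE (bottom, log2 of RPF over RNA) in each of 24 livers, with circles, squares and triangles for replicates 1, 2 and 3, and lines for the mean ± SD of 3 livers. Aco1-/- livers at ZT5 reach 4039.6 CPM of RPF, and at ZT12 the triangle of the Aco1-/- group stands above its group in RNA (1383 CPM) and below it in TE (0.57).

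At ZT12 the same comparison gave a mixed picture. *Hamp* RNA was 495, 566 and 537 CPM in Aco1+/+ livers and 496, 597 and 1383 CPM in Aco1-/- livers, and RPF was 1669.8, 1325 and 1226 against 1153, 1279 and 2056 CPM. In RNA replicate 1 of the knockouts lay among the controls and replicate 2 just above them. In RPF replicate 1 lay below the controls and replicate 2 among them. Replicate 3 stood high in both assays. The log2 fold change was 0.64 ± 0.39 in RNA and 0.09 ± 0.31 in RPF. The difference between the genotype effects at ZT12 and ZT5 was -1.20 ± 0.44 in RPF (edgeR adjusted p = 0.881), so a different effect at the 2 timepoints was not established.

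From ZT5 to ZT12, *Hamp* RPF fell by 1.12 ± 0.31 on the log2 scale in Aco1-/- livers (edgeR adjusted p = 0.0351), a fold of 0.459, from 3261 ± 1330.0 to 1496 ± 489 CPM (SD, n = 3). The groups overlapped, since the lowest ZT5 liver (1725 CPM) was below the highest ZT12 liver (2056 CPM). In Aco1+/+ livers the change was 0.08 ± 0.31. Of all genes tested in the knockouts, 12.1% passed in this comparison. The call held without either of the knockout livers numbered 3 (-1.42 and adjusted p = 0.0117 without the ZT12 liver, -1.43 and adjusted p = 0.000678 without the ZT5 liver, edgeR), but it was lost when any of the other 4 knockout livers was left out, with adjusted p up to 0.162. It was also lost with *Hamp* and *Hamp2* counted together (-1.06, edgeR adjusted p = 0.0731), with only the first of each library's runs (adjusted p = 0.0677), with only these 6 livers in the fit (adjusted p = 0.108) and with the replicate number as a block (adjusted p = 0.0937). The RNA difference was -0.60 ± 0.38 and did not pass, but it was -1.19 (edgeR adjusted p = 0.00107) without Aco1-/- ZT12 replicate 3.

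The TE of *Hamp* in the Aco1 line was 1.52, 1.34 and 1.26 in controls and 1.41, 1.48 and 1.10 in knockouts at ZT5, and 1.75, 1.23 and 1.19 against 1.22, 1.10 and 0.57 at ZT12. The groups overlapped at both timepoints, and the lowest value of all 24 livers was that of Aco1-/- ZT12 replicate 3. The knockout effect was -0.05 ± 0.16 at ZT5 and -0.43 ± 0.16 at ZT12 (edgeR adjusted p = 0.538). Without that liver the effect at ZT12 was -0.23 (edgeR adjusted p = 0.649).

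Markers of inflammation and of other cells were set beside these livers. The 9 acute-phase genes, among them *Saa1*, *Lcn2* and *Hp*, had 0 calls between genotypes at either timepoint in RNA, RPF or TE. Their summed RNA was 8083 to 9538 CPM in Aco1-/- and 8917 to 9646 CPM in Aco1+/+ livers at ZT5. Most of this sum was *Fgb* and *Hp*, so it says little of the sparser genes. By gene, the log2 fold change in RNA was positive for 3 of 9, among them *Crp* (297 against 267 CPM). At ZT12 the sum was lower in both genotypes (6050.4 to 6721 CPM), and 2 of the 9 genes fell from ZT5 to ZT12 in RPF both of Aco1-/- livers, where *Hamp* fell, and of Aco1+/+ livers, where it did not pass. Of all genes, 6.78% fell in RPF of Aco1-/- and 3.18% in RPF of Aco1+/+ livers. Summed Kupffer cell markers were 314 to 461 CPM of RNA in Aco1-/- and 296 to 353 in Aco1+/+ livers at ZT5. The sum of globin genes and *Alas2* was 69.9 to 207 against 199.9 to 211. Most of it was *Alas2* (means of 118 against 156 CPM), an IRP target that the paper considers most likely made by hepatocytes here. The globin means were lower in knockouts, with *Hbb-bs* at 7.25 against 31.9 CPM. The part of these transcripts and of the acute-phase genes in the *Hamp* values was not tested.

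In the Ireb2 line *Hamp* RNA was 455, 563 and 674 CPM in controls and 633, 321 and 476 CPM in knockouts at ZT5, and 665, 669.6 and 995 against 826, 713 and 794 CPM at ZT12. RPF was 1106, 1224 and 1645 against 1268, 691 and 1002 CPM at ZT5, and 1341, 1205 and 1951 against 1799.99, 1781 and 1623 CPM at ZT12. The genotypes overlapped at both times. The knockout effect was -0.24 ± 0.24 in RNA and -0.43 ± 0.24 in RPF at ZT5, and 0.00 ± 0.24 and 0.21 ± 0.24 at ZT12, and neither assay passed at either time. Without the livers with pancreas transcripts these were -0.09 and -0.24 at ZT5 and -0.04 and 0.18 at ZT12.

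Between timepoints, the 3 Ireb2-/- livers at ZT12 lay above the 3 at ZT5 in both assays, and 21.9% of all genes in RNA and 23.6% in RPF did not overlap in this comparison. Summed markers of other cells differed between the same livers, with endothelial RNA at 651 to 725 CPM at ZT5 and 578 to 599.5 at ZT12, stellate cell RNA at 539.6 to 641 and 487 to 537, and hepatocyte RPF at 155177 to 203001 and 207037 to 242531. Endothelial RPF also separated the times, at 757 to 821 CPM at ZT5 and 693 to 716 at ZT12. Stellate RPF (843 to 952 and 812 to 989 CPM) and hepatocyte RNA (116877 to 135319 and 127606 to 147698 CPM) overlapped. The part of these markers in the *Hamp* values was not tested. The change was 0.71 ± 0.24 in RNA (edgeR adjusted p = 0.174) and 0.81 ± 0.24 in RPF (edgeR adjusted p = 0.0877), against 0.46 ± 0.24 and 0.18 ± 0.24 in Ireb2+/+ livers. The RPF change passed with DESeq2 (0.85, adjusted p = 0.00462), with only these 6 livers in edgeR (0.81, adjusted p = 0.0252), with a replicate block (0.84, adjusted p = 0.0466) and without Ireb2-/- ZT5 replicate 1 (1.03, adjusted p = 0.0358). Without the livers with pancreas transcripts it was 0.79 (edgeR adjusted p = 0.149), and the change in Ireb2+/+ livers was 0.61 in RNA and 0.36 in RPF. The mean level thus differed between times in opposite directions in the knockouts of the 2 lines, and this contrast between lines was not tested.

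The TE of *Hamp* in the Ireb2 line was 1.28, 1.12 and 1.29 in controls and 1.00, 1.10 and 1.07 in knockouts at ZT5, and 1.01, 0.85 and 0.97 against 1.12, 1.32 and 1.03 at ZT12. Every knockout was below every control at ZT5 and above every control at ZT12, where the genotypes did not overlap in TE for 12.0% and 9.84% of all genes. The effects were -0.17 ± 0.09 (edgeR adjusted p = 0.714) and 0.22 ± 0.09 (edgeR adjusted p = 1), and the difference between them was 0.39 ± 0.12 (edgeR adjusted p = 0.886). In controls the change of TE from ZT5 to ZT12 was -0.29 ± 0.09 (edgeR adjusted p = 0.157). None of these effects passed the adjustment over all genes. Without the livers with pancreas transcripts the effects were -0.15 and 0.23, their difference 0.38 (edgeR adjusted p = 0.529) and the change in controls -0.26 (adjusted p = 0.112). With 1 liver left out the effect at ZT12 lay between 0.13 and 0.28.

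*Hamp2* encodes a second hepcidin peptide of mice whose role in iron balance is less clear, and it was the most variable member. Its RNA ranged from 2.54 to 168 CPM over the 24 livers, a 66.1-fold spread, and the pooled SD within groups was 1.53 on the log2 scale against a median of 0.32 over all genes tested. In Aco1-/- livers RNA was 33.2, 75.3 and 2.54 CPM at ZT5 and 3.05, 5.48 and 168 CPM at ZT12, so that the extremes of the whole series fell within this genotype. In Aco1+/+ livers it was 16.7, 15.5 and 4.44 CPM at ZT5 and 13.7, 11.3 and 7.86 CPM at ZT12. The knockout effect was 1.54 ± 1.46 at ZT5 and 2.59 ± 1.42 at ZT12 in RNA, and 1.91 ± 1.51 and 2.10 ± 1.47 in RPF, with errors near or above 1.4 and groups that overlapped. At ZT12 knockout replicates 1 and 2 lay below every control in both assays, so the positive effect there rested on replicate 3.

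*Hamp2* RNA of the Ireb2 line was 6.07, 4.91 and 9.81 CPM in controls and 33.6, 21.4 and 8.23 CPM in knockouts at ZT5, and 6.53, 5.26 and 6.44 against 7.48, 15.8 and 38.0 CPM at ZT12. RPF followed, at 6.56, 8.58 and 20.7 against 63.3, 44.4 and 11.4 CPM and at 13.9, 12.8 and 17.6 against 20.5, 26.6 and 79.2 CPM. The genotypes overlapped at ZT5 and did not at ZT12, in either assay. At ZT12 this was so for 9.77% of all genes in RNA and 10.6% in RPF. Summed hepatocyte markers also separated the genotypes at ZT12, at 108577 to 119271 CPM of RNA in controls and 127606 to 147698 in knockouts and at 180930 to 199089 and 207037 to 242531 CPM of RPF, as they did in RNA at ZT5 (94505 to 115421 and 116877 to 135319). Most of the RNA sum was *Alb*, with means of 93637 CPM in controls and 118106 in knockouts at ZT12. *Apoa1* and *Ttr* were also higher in knockouts then, but *Cps1* (7927 and 7669 CPM) and *Serpina1c* (1520 and 1433) were lower. At ZT5 *Alb* and *Ttr* were higher in knockouts, and *Apoa1*, *Serpina1c* and *Cps1* were lower. The part of these markers in the *Hamp2* values was not tested. The knockout effect in RNA was 1.60 ± 0.70 at ZT5 (edgeR adjusted p = 0.836) and 1.70 ± 0.74 at ZT12 (edgeR adjusted p = 1.00). In RPF it was 1.73 ± 0.74 (edgeR adjusted p = 0.648) and 1.51 ± 0.76 (edgeR adjusted p = 0.712). Without the livers with pancreas transcripts the effects were 1.85 and 2.15 in RNA and 2.36 and 1.83 in RPF. They were lower without the knockout liver with the most *Hamp2* RNA, at 1.05 in RNA and 1.28 in RPF without Ireb2-/- ZT5 replicate 1 and 0.93 in RNA without Ireb2-/- ZT12 replicate 3.

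*Hamp2* took between 0.314 and 10.8% of the RNA counts of the pair (median 1.57%) and between 0.273 and 12.9% of the RPF counts (median 1.42%). The largest share in both assays was in Aco1-/- ZT12 replicate 3 and the smallest in Aco1-/- ZT5 replicate 3. The coding sequences of the 2 genes are close copies, so reads may have been divided between them by the authors' counting, and the values of *Hamp2* are uncertain for that reason. A liver with a high *Hamp2* was not always high in *Hamp*, since Ireb2-/- ZT5 replicate 2 had the lowest *Hamp* RNA of all livers (321 CPM) with 21.4 CPM of *Hamp2*.

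**Figure D2:**
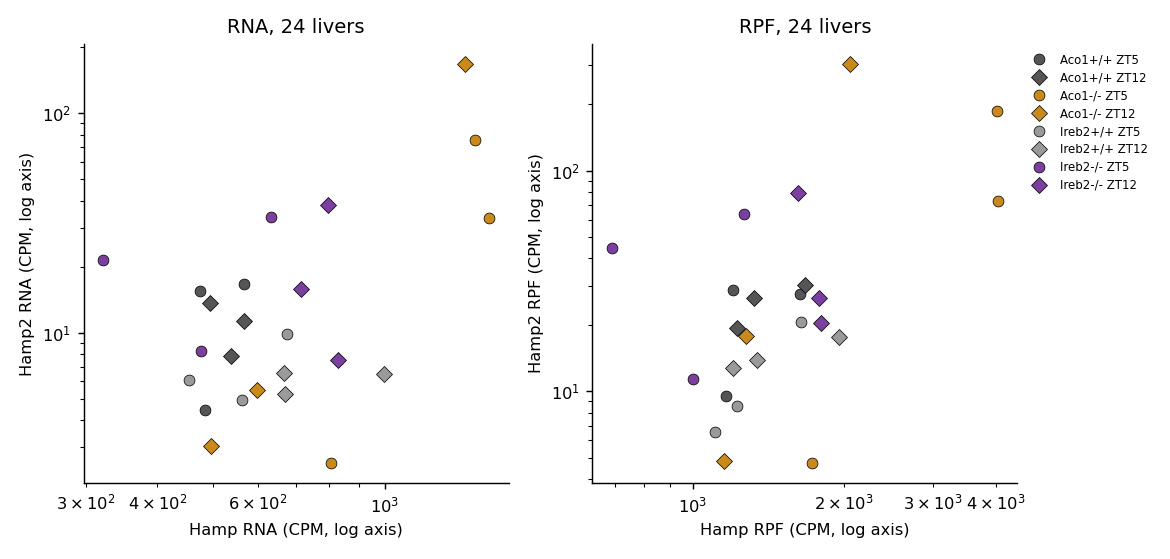
*Hamp2* against *Hamp* in RNA (left) and RPF (right), in CPM on log axes, with 1 point for each of 24 livers, shaped by timepoint and coloured by genotype. Points of the Aco1-/- groups span the plot from 2.54 to 168 CPM of *Hamp2* RNA.

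*Bmp6*, the iron-responsive ligand made mainly by endothelial cells, was higher in each Aco1-/- liver than in each control in RNA. At ZT5 RNA was 3.51, 5.07 and 4.44 CPM in Aco1+/+ and 8.40, 10.9 and 8.47 CPM in Aco1-/- livers, and at ZT12 it was 4.03, 6.30 and 3.14 against 7.12, 7.21 and 7.90 CPM. The groups did not overlap at either time, as was so for 9.4% of all genes at ZT5 and 11.6% at ZT12. The log2 fold change was 1.07 ± 0.33 at ZT5 (edgeR adjusted p = 1) and 0.68 ± 0.33 at ZT12 (edgeR adjusted p = 0.65). In RPF, with 3 to 31 counts per liver, it was 1.20 ± 0.52 at ZT5 (edgeR adjusted p = 1.00) and 0.70 ± 0.49 at ZT12, and the genotypes overlapped. With 1 liver left out the RPF effect at ZT5 ranged from 0.87 (without Aco1+/+ replicate 2) to 1.92 (without Aco1+/+ replicate 1), and the RNA effect at ZT12 from 0.48 (without Aco1+/+ replicate 3) to 1.07 (without Aco1+/+ replicate 2). Over 14 alternatives the RNA effect lay between 0.61 and 1.25 at ZT5 and between 0.41 and 1.07 at ZT12, and none of these passed the adjustment. With all count columns the group means lay closer together than in the CDS. They were 7.95 CPM in controls and 12.1 in knockouts at ZT5, and 6.90 and 9.17 at ZT12. Summed markers of sinusoidal endothelial cells, the main source of *Bmp6*, were 512 to 725 CPM of RNA over the 24 livers.

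*Bmp6* RNA of the Ireb2 line was 4.14, 9.82 and 2.88 CPM in controls and 6.39, 7.98 and 7.13 CPM in knockouts at ZT5, and 6.53, 6.63 and 9.02 against 5.82, 7.62 and 5.24 CPM at ZT12. The genotypes overlapped, with effects of 0.43 ± 0.35 and -0.20 ± 0.35, or 0.22 and -0.13 without the livers with pancreas transcripts. Of the neighbours in the order of group means, the 1 pair of groups that did not overlap was Aco1-/- at ZT12 (7.41 ± 0.423 CPM) and at ZT5 (9.24 ± 1.40 CPM; SD, n = 3), with an exact two-sided permutation p of 0.1, the smallest that 3 against 3 livers allow. The fitted change of *Bmp6* between these groups was -0.32 ± 0.30 (edgeR adjusted p = 0.609), and 21.1% of all genes did not overlap there. For the other 5 members neighbouring groups overlapped throughout in RNA and in RPF.

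*Id1* encodes an inhibitor of basic helix-loop-helix factors and is an immediate target of BMP signalling. In the Aco1 line its RNA was 7.47, 9.06 and 11.4 CPM in controls and 13.9, 21.7 and 9.59 CPM in knockouts at ZT5, and 2.42, 4.34 and 4.40 against 9.16, 4.04 and 19.6 CPM at ZT12. At each time 2 knockout livers were above every control and the remaining liver was not. The knockout effect was 0.75 ± 0.46 at ZT5 and 1.56 ± 0.53 at ZT12 (edgeR adjusted p = 0.524), and in RPF 0.82 ± 0.69 and 0.99 ± 0.68. The value at ZT12 rested on single livers, being 0.49 without Aco1-/- replicate 3 and 2.06 without replicate 2 (edgeR adjusted p = 0.0124). In Aco1+/+ livers *Id1* RNA at ZT12 lay below every ZT5 liver, where 26.0% of all genes did not overlap, with a change of -1.24 ± 0.55 (edgeR adjusted p = 0.221). In the Ireb2 line the genotypes overlapped, between 2.72 and 11.9 CPM of RNA, and the knockout effect was -0.23 ± 0.53 at ZT5 and -0.38 ± 0.56 at ZT12, or -0.27 and -0.41 without the livers with pancreas transcripts.

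*Smad7* encodes the inhibitory SMAD that dampens the pathway which induces it. Its RNA in the Aco1 line was 13.2, 17.6 and 16.5 CPM in controls and 12.6, 19.0 and 17.2 CPM in knockouts at ZT5, and 10.9, 8.04 and 11.9 against 7.12, 10.96 and 33.8 CPM at ZT12. The knockouts at ZT12 held both the lowest and the highest liver of that comparison. The effect of 0.93 ± 0.41 there (edgeR adjusted p = 0.645) turned to -0.039 without Aco1-/- ZT12 replicate 3, which was also the highest of its group in *Hamp*, *Hamp2* and *Id1* RNA. That liver held 15.5 CPM of cholangiocyte marker RNA, the most of all livers, against 5.09 and 4.04 CPM in the other livers of its group, and its hepatocyte markers were within their range. The part of this in its values was not tested.

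The TE of *Smad7* in the Ireb2 line was -0.69, -1.08 and -1.14 in controls and -1.18, -1.28 and -1.04 in knockouts at ZT5, and -2.01, -1.85 and -1.91 against -1.02, -1.40 and -1.23 at ZT12. The 3 controls at ZT12 stood below the other 9 livers of the line, and 12.3% of all genes did not overlap in TE between the controls of both times. In controls the change from ZT5 to ZT12 was -1.07 ± 0.32 in TE (edgeR adjusted p = 0.159) and -0.64 ± 0.26 in RPF (edgeR adjusted p = 0.149). The knockout effect on TE at ZT12 was 0.77 ± 0.37 (edgeR adjusted p = 1) and its difference from that at ZT5 was 1.03 ± 0.48 (edgeR adjusted p = 0.91). Without the livers with pancreas transcripts the changes in controls were -1.17 in TE (edgeR adjusted p = 0.111) and -0.63 in RPF, and the knockout effect on TE at ZT12 was 0.64 with a difference of 0.998 from that at ZT5. *Smad7* had 11 to 53 RPF counts per liver.

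*Fbxl5* is the substrate receptor through which iron controls IRP2, and it was the steadiest member. RNA ranged from 27.1 to 52.9 CPM (1.95-fold), or from 34.0 CPM (1.56-fold) without Ireb2+/+ ZT5 replicate 3, a liver with pancreas transcripts, and RPF from 14.2 to 23.3 CPM (1.64-fold), and the pooled SD within groups was 0.22 and 0.16 on the log2 scale, below the medians of all genes tested (0.32 and 0.26). In Ireb2-/- livers, which lack the protein that FBXL5 degrades, RPF was 21.1, 19.4 and 18.3 CPM at ZT5 and 14.4, 15.2 and 18.6 CPM at ZT12, against 20.8, 21.3 and 22.8 and 21.6, 16.4 and 23.3 CPM in controls. The effect was -0.14 ± 0.15 at ZT5 and -0.35 ± 0.16 at ZT12 (edgeR adjusted p = 0.641), with groups that overlapped at both times, and -0.11 and -0.28 without the livers with pancreas transcripts. In the Aco1 line *Fbxl5* RNA at ZT12 was 44.3, 46.5 and 47.8 CPM in controls and 39.7, 41.3 and 34.0 CPM in knockouts, without overlap, and the effect was -0.28 ± 0.17. Genotypes did not overlap in that comparison for 11.6% of all genes.

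**Figure D3:**
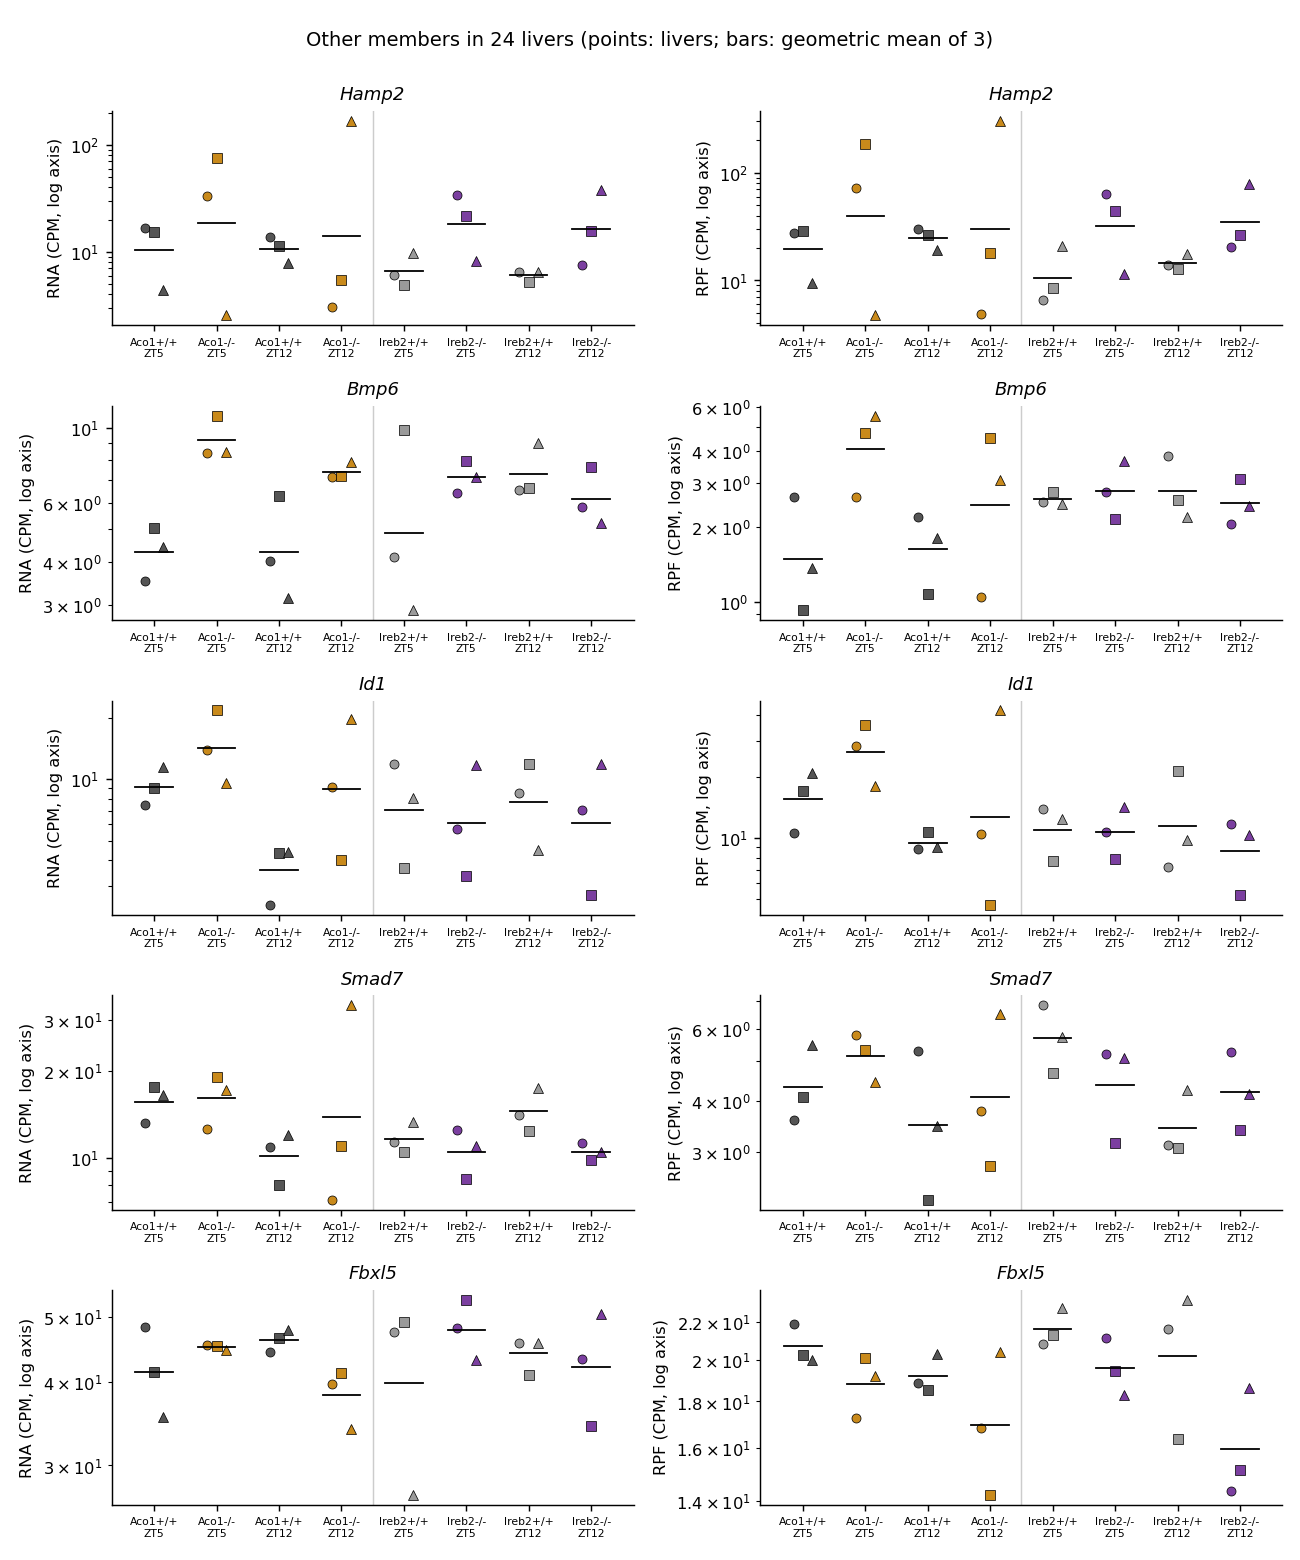
RNA (left) and RPF (right) of *Hamp2*, *Bmp6*, *Id1*, *Smad7* and *Fbxl5* in CPM on log axes, with circles, squares and triangles for the livers of replicates 1, 2 and 3 and bars for the geometric mean of 3 livers. *Bmp6* RNA of both Aco1-/- groups sits above that of their controls, and *Hamp2* spreads from 2.54 to 168 CPM.

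Between genotypes, 0 of 6 members passed edgeR's adjusted threshold of 0.05 in any comparison. In the Aco1 line this stood against 0.0% of all genes in RNA, 0.00935% in RPF and 0.00935% in TE at ZT5, and 0.00935%, 0.299% and 0.0935% at ZT12, so few genes of any kind passed. At an unadjusted p under 0.05 there were 2, 2 and 0 members at ZT5, against 3.73%, 2.79% and 2.54% of all genes, and 3, 0 and 1 at ZT12, against 7.66%, 12.7% and 6.71%. In the Ireb2 line the shares of all genes were 0.00935%, 0.0655% and 0.00935% at ZT5 and 0.0187%, 0.0281% and 0.0% at ZT12, with 1, 1 and 0 members at an unadjusted p under 0.05 at ZT5 (all genes 5.64%, 7.64% and 7.01%) and 1, 1 and 2 at ZT12 (4.21%, 7.62% and 3.56%). For the difference between the genotype effects at the 2 times, 0 members passed in either line, against 0.0% in RNA, 0.0% in RPF and 0.028% in TE in the Aco1 line and 0.0% in all 3 measures in the Ireb2 line. At an unadjusted p under 0.05 there were 0, 1 and 0 members in the Aco1 line, against 5.87%, 5.52% and 4.75% of all genes, and 0, 0 and 2 in the Ireb2 line, against 3.86%, 3.98% and 5.25%.

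Between timepoints the background was larger. In Aco1+/+ livers 0 members passed against 7.05% of all genes in RNA, 6.64% in RPF and 0.0187% in TE, and in Aco1-/- livers 0, 1 and 0 members passed against 5.15%, 12.1% and 0.15%. In Ireb2+/+ livers 0 members passed against 2.29%, 7.53% and 0.533%, and in Ireb2-/- livers 0 members against 2.77%, 5.73% and 0.00935%. At an unadjusted p under 0.05 there were 1, 0 and 0 members in Aco1+/+ livers against 20.0%, 20.7% and 7.49% of all genes, and 0, 1 and 1 in Aco1-/- livers against 19.3%, 27.8% and 8.05%. In Ireb2+/+ livers there were 0, 1 and 2 against 15.1%, 21.7% and 8.22%, and in Ireb2-/- livers 1, 1 and 0 against 14.6%, 19.3% and 4.52%. A single member called among 6 is near the share of all genes in that comparison.

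Genotypes did not overlap for 2 members in RNA (*Hamp* and *Bmp6*) and 1 in RPF (*Hamp*) of the Aco1 line at ZT5, against 9.4% and 7.62% of all genes. At ZT12 they did not overlap for 2 members in RNA (*Bmp6* and *Fbxl5*) and 0 in RPF, against 11.6% and 20.4%. In the Ireb2 line there were 0 members in either assay at ZT5 against 11.6% and 15.9%, and at ZT12 there were 2 in RNA (*Hamp2* and *Smad7*) and 1 in RPF (*Hamp2*) against 9.77% and 10.6%. In TE there were 1 (*Fbxl5*) at ZT5 and 0 at ZT12 in the Aco1 line against 8.69% and 11.1%, and 1 (*Hamp*) and 2 (*Hamp* and *Smad7*) in the Ireb2 line against 12.0% and 9.84%.

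**Figure D4:**
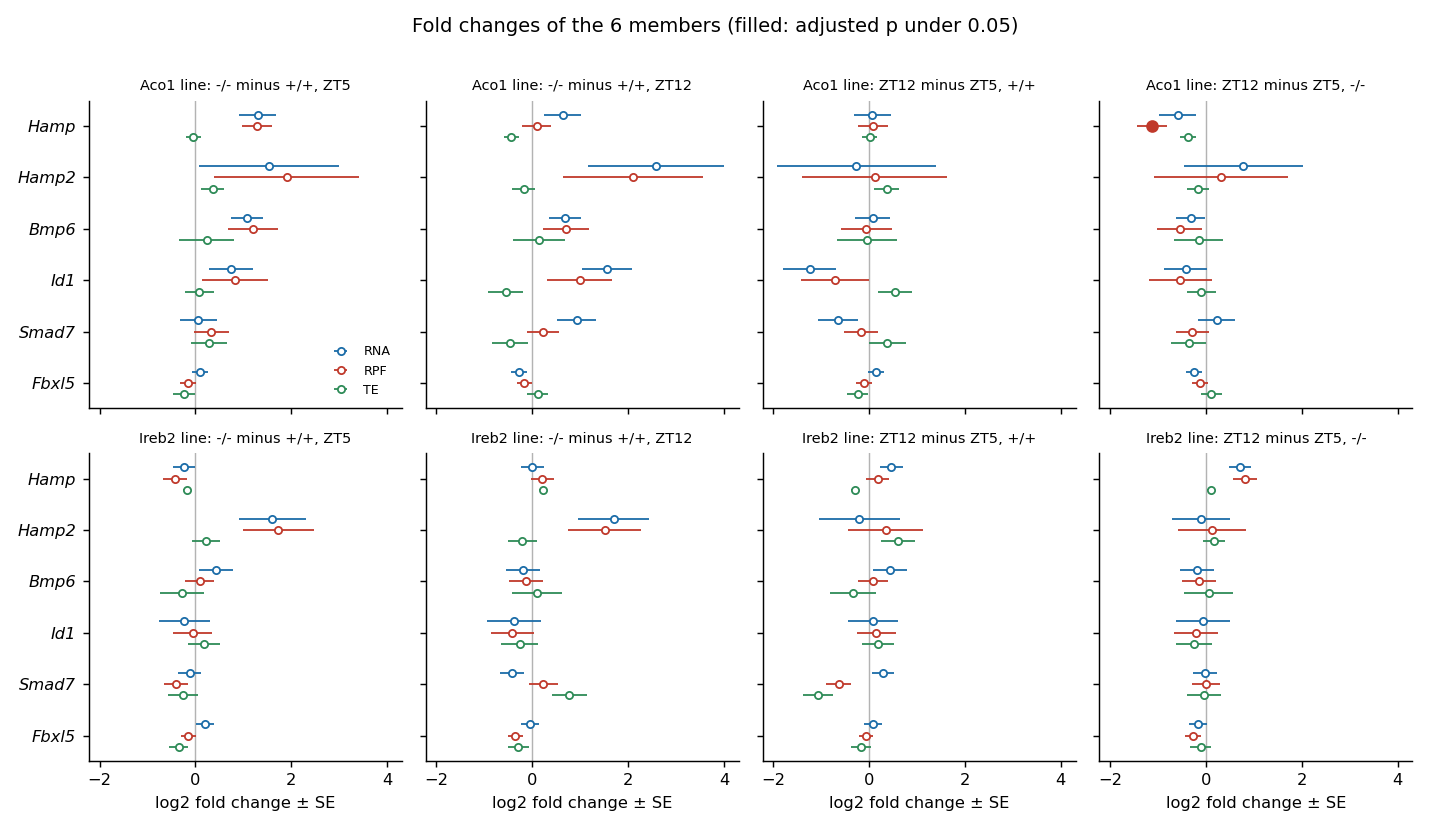
Log2 fold changes of the 6 members with their SE in RNA, RPF and TE, for knockout minus control at ZT5 and ZT12 and for ZT12 minus ZT5 in each genotype, in the Aco1 line (top) and the Ireb2 line (bottom). The 1 filled point, *Hamp* RPF in Aco1-/- livers at -1.12, passed the adjusted threshold, and the widest bars belong to *Hamp2*.

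Livers of a group were also compared with each other, to see whether a liver high in the ligand was high in the targets. After removal of the group means, *Bmp6* and *Hamp* over the 24 livers had r = 0.02 (permutation p = 0.926, adjusted 0.926) and rho = 0.02 (p = 0.917, adjusted 0.917) in RNA and r = 0.07 (permutation p = 0.789, adjusted 0.902) and rho = 0.08 (p = 0.772, adjusted 0.883) in RPF. *Bmp6* and *Id1* had r = -0.33 (permutation p = 0.175, adjusted 0.529) and rho = -0.26 (p = 0.261, adjusted 0.529) in RNA, and r = -0.26 (permutation p = 0.617, adjusted 0.822) and rho = -0.34 (p = 0.208, adjusted 0.529) in RPF. The closest pair was that of the SMAD targets *Id1* and *Smad7* in RPF, with r = 0.63 (permutation p = 0.0106, adjusted 0.0852) and rho = 0.59 (p = 0.0129, adjusted 0.103), and with r = 0.69 in the Aco1 line and 0.50 in the Ireb2 line. It did not pass the adjustment over the 8 relations, and r was 0.40 without the 2 livers farthest from the median of *Id1* and 0.52 without Aco1-/- ZT12 replicate 3.

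In RNA, *Id1* and *Smad7* had r = 0.37 (permutation p = 0.341, adjusted 0.545) and rho = 0.28 (p = 0.302, adjusted 0.529), and r was 0.33 without the 2 farthest livers. *Id1* and *Hamp* had r = 0.36 in RNA (permutation p = 0.264, adjusted 0.529) with rho = 0.27 (p = 0.331, adjusted 0.529) and r = 0.33 in RPF (permutation p = 0.233, adjusted 0.529) with rho = 0.21 (p = 0.428, adjusted 0.571). For this pair r in RNA was 0.70 in the Aco1 line and -0.00 in the Ireb2 line, and without the 2 farthest livers it was 0.30 in RNA and 0.15 in RPF. For *Bmp6* and *Hamp* r without the 2 farthest livers was 0.14 in RNA and 0.01 in RPF, and for *Bmp6* and *Id1* it was -0.21 and -0.20.

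The genes whose RNA was closest to *Hamp* over the 24 livers, without removal of group means and among 6506 genes, were *Sec14l4* (r = 0.86 in RNA, 0.76 in RPF), *Hspb8*, which encodes a small heat shock protein (0.77 and 0.61), *Apoa5*, which encodes an apolipoprotein that lowers plasma triglycerides (0.76 and 0.58), *A1cf*, which encodes the partner of the apolipoprotein B mRNA editing enzyme (0.67 and 0.06), and *Cyp2c38*, a cytochrome P450 gene (0.67 and 0.41). For *Id1* they were *Tgoln1* (0.72 and 0.62), *Net1* (0.65 and 0.34), *Slc25a42* (0.64 and 0.23), *Mgat1* (0.64 and 0.08) and *Entpd8* (0.64 and -0.02). For *Smad7* they were *Foxn3* (0.77 and 0.17), *Foxo4* (0.74 and 0.06), *Lcmt2* (0.69 and 0.45), *Rnf10* (0.68 and 0.15) and *Atp6ap1* (0.68 and -0.20). The likeness of *Hamp* to its first 3 genes was present in both assays, while that of *Smad7* to its first 2 was near 0 in RPF. Points share their livers, line and timepoint, and the genes were picked as the highest of many, so no test was made.

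The wider pathway list held 51 genes of BMP ligands and antagonists, receptors, SMADs, inhibitors, targets, the interleukin-6 arm and the FBXL5 ligase, the 6 members among them. Of these 47 were listed and 45 tested. Between genotypes of the Aco1 line 0 of 45 passed in RNA, RPF or TE at either time (edgeR), with medians of 0.03 in RNA and 0.11 in RPF at ZT5 and 0.07 and 0.03 at ZT12, against 0.02, 0.01, 0.00 and 0.02 over all genes. The smallest p-values at ZT5 were those of *Bmp6*, *Gdf2* (the ligand BMP9, -0.66 ± 0.23), *Hamp* and *Chrd* (the BMP antagonist chordin, -0.59 ± 0.34) in RNA, and of *Hamp*, *Atoh8* (a BMP target that acts on *Hamp*, 1.26 ± 0.34, edgeR adjusted p = 1.00), *Bmp6* and *Acvr2b* (an activin receptor, -1.03 ± 0.51) in RPF. At ZT12 they were those of *Bmp5* (a BMP ligand, -0.92 ± 0.30), *Ireb2* (-0.43 ± 0.16), *Id1* and *Acvr2a* (-0.54 ± 0.21) in RNA, and of *Id2* (0.80 ± 0.19, edgeR adjusted p = 0.0837), *Rbx1* (a subunit of cullin ligases, -1.09 ± 0.26, adjusted p = 0.0958), *Bmp10* (-0.55 ± 0.21) and *Id3* (0.74 ± 0.28) in RPF.

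In the Ireb2 line the 1 gene of the list that passed between genotypes was *Ireb2* itself, in RPF at ZT5 (-1.001, edgeR adjusted p = 0.00294), in RPF at ZT12 (-0.98, adjusted p = 0.00278) and in TE at ZT5 (-1.33, adjusted p = 1.07e-06). The other genes with the smallest p-values were *Id2* (-0.60 ± 0.24), *Bmpr1a* (a type I BMP receptor, 0.45 ± 0.21), *Herc2* (a ligase for FBXL5, -0.27 ± 0.13) and *Smad9* (which encodes SMAD8, -0.85 ± 0.41) in RNA at ZT5, and *Bambi* (a decoy receptor, -1.42 ± 0.57), *Hamp2*, *Smad9* (-0.63 ± 0.35) and *Gdf2* (-0.41 ± 0.24) in RNA at ZT12. In RPF they were *Herc2* (-0.31 ± 0.14), *Hamp2* and *Bmp4* (0.84 ± 0.42) at ZT5, and *Fbxl5*, *Cul1* (a cullin of the FBXL5 ligase, -0.23 ± 0.11) and *Hfe* (the hemochromatosis protein, 0.26 ± 0.13) at ZT12. Without the livers with pancreas transcripts *Ireb2* still passed in RPF (-1.07 and -0.99) and in TE at ZT5 (-1.13), and it also passed in TE at ZT12 (-0.80, edgeR adjusted p = 0.0177). Of the other genes just named that are no members, *Id2* moved to -0.30, *Bmpr1a* to 0.24, *Bambi* to -2.17, *Bmp4* to 0.71 and *Herc2* RPF to -0.18, and the rest by less. The medians of the list were 0.03 and 0.03 at ZT5 and -0.06 and -0.02 at ZT12, in RNA and RPF.

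Between timepoints a few genes of the list passed. *Il6ra*, the interleukin-6 receptor, rose from ZT5 to ZT12 in RNA of Aco1+/+ (1.14, edgeR adjusted p = 0.000769) and Aco1-/- livers (1.76, adjusted p = 8.28e-07) and in RPF of all 4 genotypes (1.14 to 1.73). *Id3* fell in Aco1+/+ livers in RNA (-1.61, edgeR adjusted p = 0.00249) and RPF (-1.97, adjusted p = 0.00105) and in RPF of Aco1-/- livers (-0.96, adjusted p = 0.0383), and *Id2* fell in RPF of Aco1+/+ livers (-0.94, adjusted p = 0.00564). In RNA, 1 of 45 genes rose and 2 fell in Aco1+/+ (the second being *Chrd*, -1.30, edgeR adjusted p = 0.0251), 1 rose in Aco1-/-, 1 rose in Ireb2-/- (*Tfrc*, the transferrin receptor, 2.07, adjusted p = 0.0462) and 0 in Ireb2+/+ livers. These were 6.67% of the list against 7.05% of all genes in Aco1+/+, 2.22% against 5.15% in Aco1-/-, 2.22% against 2.77% in Ireb2-/- and 0.0% against 2.29% in Ireb2+/+ livers, so each share was below that of all genes. *Tfrc* RNA rose by 2.29 in Ireb2-/- livers without those with pancreas transcripts (edgeR adjusted p = 0.00283).

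In RPF of Aco1-/- livers, where *Hamp* fell, 2 genes of the list rose and 5 fell, that is 15.6% of the 45 genes against 12.1% of all genes. Beside *Il6ra*, *Tfrc* rose by 2.17 (edgeR adjusted p = 0.0273). Beside *Hamp* and *Id3*, those that fell were *Tmprss6*, the protease that restrains hepcidin (-0.43, adjusted p = 0.0285), *Fkbp1a*, which encodes a binder of type I BMP receptors (-0.69, adjusted p = 0.0317), and *Rbx1* (-1.17, adjusted p = 0.00968). In RPF of Aco1+/+ livers 1 rose and 2 fell (6.67% against 6.64% of all genes), in Ireb2+/+ livers 2 rose, 4.44% against 7.53% (*Il6ra* and *Smad9*, 1.10, edgeR adjusted p = 0.0165), and in Ireb2-/- livers 1 rose and 1 fell, 4.44% against 5.73% (*Cul1*, -0.49, adjusted p = 0.0115). Both calls in Ireb2-/- livers were lost without those with pancreas transcripts (*Il6ra* 1.16, edgeR adjusted p = 0.0674, and *Cul1* -0.49, adjusted p = 0.0621), and both in Ireb2+/+ livers held. In TE 0 of 45 passed between timepoints in any genotype.

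The count files split each gene's counts into columns that carry no names, and file column 3, read as CDS, holds 94.4% of all RPF counts. For *Hamp* it held 99.5% of the RPF counts summed over the 24 livers, for *Hamp2* 98.4% and for *Id1* 97.9%. For *Bmp6* and *Smad7* it held 55.8 and 59.9%, and most of the rest lay in file column 2, with 40.7% of the *Bmp6* RPF counts (265 counts) and 38.9% of the *Smad7* RPF counts (413 counts), against 2.10% over all genes. Column 2 stands before the CDS column, and the sources used here do not name it. In single livers the share was 22.7 to 63.6% for *Bmp6* and 7.69 to 54.1% for *Smad7*. In RNA column 2 held 23.6% of the *Bmp6* and 27.9% of the *Smad7* counts, against 5.15% over all genes, so the share of both genes was also above the pooled share in RNA.

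**Figure D5:**
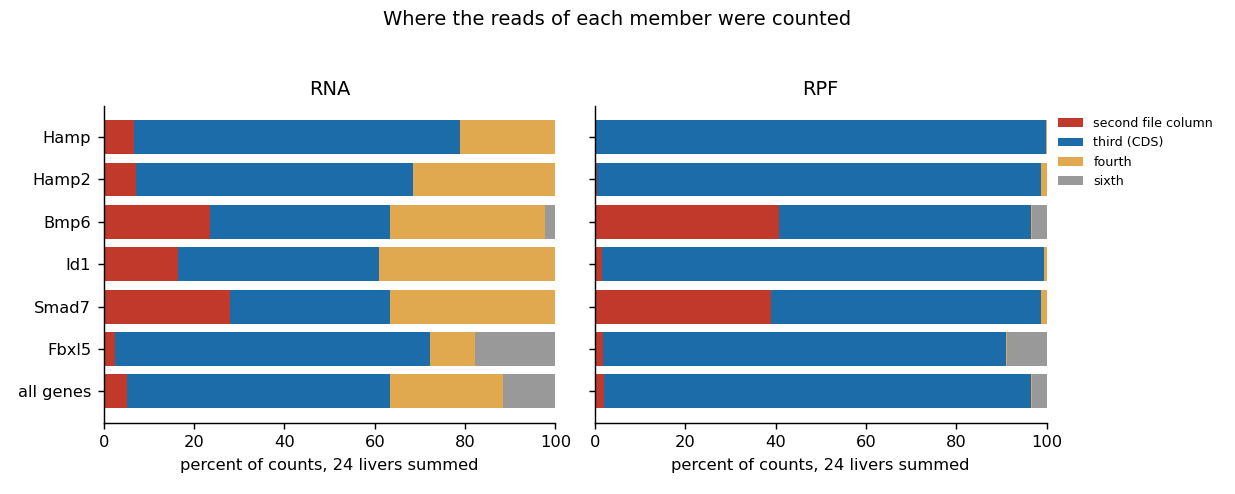
Share of the counts of each member, in percent with 24 livers summed, that falls in file columns 2, 3 (CDS), 4 and 6, in RNA (left) and RPF (right), with all genes as the last bar. In RPF column 2 holds 40.7% of *Bmp6* and 38.9% of *Smad7* counts and 2.10% of all counts.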

How the data were processed

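RPF and total RNA libraries were made from each of 24 livers (48 libraries, 77 sequencing samples, since 29 libraries were run again). The authors deposited raw counts per gene, not normalised, for each run. Per the submitters' processing notes, reads were handled with cutadapt 3.5, Bowtie2 (removal of rRNA and tRNA) and STAR 2.70f. The counter, its strand setting and the names of its 5 count columns are not given in the sources used here, so the CDS column was read from the values, and genes on opposite strands cannot be told apart. Runs of a library were summed. Runs of a library agreed nearly within sampling noise (chi-square over genes divided by degrees of freedom 0.981 to 1.10), whereas livers of a group did not (2.30 to 55.3).

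Libraries were scaled by the upper quartile, and genes were kept by filterByExpr (minimum count 10, minimum total 15). edgeR's quasi-likelihood test (robust) was fitted for each line, where 4 groups of 3 livers share the estimate of spread. TE used 1 model over both libraries of a liver. p-values were adjusted by Benjamini-Hochberg over the genes tested and called under 0.05. CPM are normalised, and TE is log2 of RPF + 0.5 over RNA + 0.5. Correlations used 100000 permutations within groups. The members and lists were chosen with earlier results of these data known. Besides the members, the text names each pathway gene past the threshold, those with the 4 smallest p between genotypes in RNA and RPF, and the 5 genes closest to *Hamp*, *Id1* and *Smad7* among those with a mean of at least 10 RNA CPM. Levels per length were planned and are not given, as CDS lengths were not used here. A further promoter motif that was searched is not reported here. The scripts were tested on simulated data. Replicates are separate mice.

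Livers with the same replicate number shared little of their deviation (r between -0.09 and 0.17 in RNA, over 0.1 in 1 of 24 pairs, and between -0.10 and 0.33 in RPF, 4 of 24). In RNA 9 of 24 and in RPF 8 of 24 correlated best with their own number, among them all those between Ireb2 genotypes at ZT12. The main fits did not use the numbers as pairs, but weak correlations cannot exclude pairing. Alternatives were TMM, DESeq2, other count filters, only the livers compared, each liver left out, the replicate block, the first run, all columns, *Hamp* and *Hamp2* summed, and unpaired or limma models of TE. Leaving out the livers with pancreas transcripts was chosen after seeing the data. Fits were run in edgeR 4.0.16, DESeq2 1.42.0 and limma 3.58.1 (R 4.3.3). Tables, permutations and plots were made in Python 3.11.15 using pandas 2.3.3, NumPy 2.4.6, Matplotlib 3.10.9 and SciPy 1.17.1.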

Additional observations from a re-analysis of the deposited data

Results flagged for a closer look

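The genotype effect on *Hamp* TE in the Ireb2 line differed between timepoints in direction, since each Ireb2-/- liver was below each control at ZT5 and above each control at ZT12. Genotypes did not overlap in TE for 12.0% of all genes at ZT5 and 9.84% at ZT12. The difference between the effects was 0.39 on the log2 scale (edgeR adjusted p = 0.886 over all genes), and it lay between 0.31 and 0.45 over 23 alternatives with adjusted p from 0.319 to 1.

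Signal outside the CDS column was high for 2 members. The second, unnamed column held 40.7% of the *Bmp6* RPF counts and 38.9% of the *Smad7* RPF counts, above the share over all genes in every liver. Dixon's test for a sample far from the others was not run, since groups held 3 livers.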

How the results depend on the processing

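Of the fold changes recomputed, 159 of 168 with a liver left out and 232 of 245 under other settings kept their direction and their side of the threshold. The 8 relations between members did so with TMM and without the 2 farthest livers. Within lines and without Aco1-/- ZT12 replicate 3 some turned, *Bmp6* with *Hamp* in RNA from r = 0.02 to -0.11 in the Ireb2 line and -0.017 without that liver, *Bmp6* with *Id1* in RNA from -0.33 to 0.32 in the Aco1 line, and *Id1* with *Hamp* from 0.36 to -0.0023 in RNA and from 0.33 to -0.025 in RPF of the Ireb2 line. *Smad7* RNA between Aco1 genotypes at ZT12 turned from 0.93 to -0.039 without Aco1-/- ZT12 replicate 3, within a range of -0.039 to 1.27 over the livers left out.

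The fall of *Hamp* RPF in Aco1-/- livers between times lost its call with only the first run (-1.11), with *Hamp* and *Hamp2* summed (-1.06), with only the 6 livers compared (-1.12) and with the replicate block (-1.06), where 0 members passed in place of 1. With a liver left out it ranged from -1.43 to -0.94, and 0 to 2 members passed, 2 of them (*Hamp* -1.42, *Id1* -1.82, edgeR adjusted p = 0.0117 and 0.00443) without Aco1-/- ZT12 replicate 3. The block otherwise changed 1 count, that of the Ireb2-/- time comparison in RPF, where 1 member (*Hamp*, 0.84) passed in place of 0.

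In other comparisons 1 member passed in place of 0. With only the 6 livers compared these were *Hamp* RNA between Aco1 genotypes at ZT5 (edgeR adjusted p = 0.0111), *Id1* RNA between times in Aco1+/+ (adjusted p = 0.0134) and *Hamp* RPF between times in Ireb2-/- livers (adjusted p = 0.0252). With DESeq2 they were *Hamp* RPF between Aco1 genotypes at ZT5 (1.27) and *Hamp* RNA (0.73) and RPF (0.85) between times in Ireb2-/- livers. With all count columns they were *Hamp* RNA between times in Ireb2-/- (0.79, edgeR adjusted p = 0.036) and *Hamp* TE between times in Ireb2+/+ livers (-0.41, adjusted p = 0.0231). With a liver left out, the number that passed ranged from 0 to 1 in Aco1 RNA between genotypes at ZT12 (1 without Aco1-/- ZT12 replicate 2), in Aco1 RPF between genotypes at ZT5 (1 without Aco1-/- ZT5 replicate 3) and in Ireb2-/- RNA and RPF between times (1 without ZT5 replicate 1), and from 0 to 2 in Aco1-/- RNA between times (*Hamp* -1.19 and *Id1* -1.49, edgeR adjusted p = 0.00107 and 0.0364, without ZT12 replicate 3).

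Over all genes, calls between times moved more than 1.5 times under some settings. In RNA they were 754 (323 to 1056 over settings) in Aco1+/+, 551 (296 to 718) in Aco1-/-, 245 (104 to 493) in Ireb2+/+ and 296 (128 to 488) in Ireb2-/- livers, and in RPF 710 (299 to 1032), 1293 (532 to 1600), 805 (389 to 818) and 613 (217 to 688). Between Aco1 genotypes they were 0 (0 to 8) in RNA and 1 (1 to 3) in RPF at ZT5 and 1 (0 to 51) and 32 (7 to 160) at ZT12, and between Ireb2 genotypes 1 (0 to 7) and 7 (0 to 53) at ZT5 and 2 (1 to 9) and 3 (1 to 20) at ZT12. In TE the counts of 0 to 57 ranged from 0 to 106. With 3 to 31 RPF counts of *Bmp6* and 11 to 53 of *Smad7* per liver, the SE of their RPF fold changes in 1 genotype or at 1 time was 0.31 to 0.54 for *Bmp6* and 0.26 to 0.36 for *Smad7* on the log2 scale. The causes of these shifts were not tested.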
